A study of Mus musculus with 12 samples.

Results

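The genes described here are the protein-coding genes within 500 kb of Tnf on mouse chromosome 17. They were taken from the count table as every gene of type protein_coding in the GENCODE annotation of GRCm38 whose body overlaps positions 34699381 to 35702007, without the histocompatibility genes whose symbols begin with H2-. The rule used position and gene type and no measured value. It gave 60 genes of the 48526 in the table, and left out 7 H2- genes and 37 genes of other types in the same window. Of the 60 genes, 42 lie at lower coordinates than Tnf and 17 at higher coordinates.

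The libraries held total RNA of bone marrow-derived macrophages (BMDMs), cells cultured from mouse marrow for 6 days in medium conditioned by L929 cells. Each of the 4 groups, WT and KO without LPS (UT) and WT and KO with LPS, had 3 libraries. KO cells came from mice homozygous for a germline deletion of the HSS9 (TNF-9) enhancer, so the deletion was in every cell and not only in macrophages. WT cells came from control mice that carry no deletion, which the labels call littermates. The methods of the study name purchased C57BL/6 mice and KO mice bred as homozygous pairs. They do not say which mice gave these WT cells, so a shared breeding history cannot be assumed. According to the methods the mice were males of 7 to 10 weeks. LPS cells received lipopolysaccharide, a component of bacterial cell walls that activates macrophages, for 6 hr, and UT cells received PBS for the same time. The deleted interval overlapped 0 genes of the table and lay between Lta, at 7.5 kb, and Nfkbil1, at 6.6 kb. The interval listed for the enhancer does not overlap the deleted one and lies 4.2 kb from Lta and 9.6 kb from Nfkbil1. The question was how the genes around the deletion, and not Tnf alone, behaved with genotype and with LPS.

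As background, this window is the class III part of the major histocompatibility complex with some class I neighbors. It is one of the gene-dense stretches of the genome, and it holds genes with unrelated functions side by side. Tnf encodes tumor necrosis factor alpha, a cytokine that macrophages make quickly after LPS, and Lta and Ltb encode the related ligands lymphotoxin alpha and beta, which are made mainly by lymphocytes. The window also encodes complement components, inducible heat shock proteins of the HSP70 family and many housekeeping proteins for transcription, splicing and translation. An enhancer can act on more than one promoter, so genes near a deleted enhancer are commonly examined together.

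Library totals ranged from 26154533 to 36423921 counts. Levels are given as CPM, counts scaled to a common library size with TMM factors, and as CPM per kb of exon where genes are compared with each other. Of the 60 genes, 40 passed the filter on low counts and were tested. Differences are log2 fold changes from edgeR, and adjustment of p-values covered the 15523 genes of the table that were tested. The standard error (SE) was derived as the absolute log2 fold change over the square root of the F statistic. It is approximate, and least reliable where a group is at or near 0 counts. Calls needed an adjusted p below 0.05 together with a log2 fold change of over 1 in either direction. The labels do not say whether the 3 libraries of a group came from separate mice, so the p-values measure the spread between these libraries, which may be technical. In bulk samples, fewer cells that express a gene and less RNA per cell cannot be told apart. All 6 macrophage markers checked were above 1 CPM, and their summed level was 28100 to 29200 CPM in WT UT, 32300 to 33400 in KO UT, 22900 to 24300 in WT LPS and 25200 to 26700 in KO LPS. Most of the macrophage sum was Lyz2, at 23500 CPM in WT UT and 27300 in KO UT. The 5 B cell markers and 4 NK cell markers summed to at most 1.79 and 0.362 CPM in any library, the 5 T cell markers to at most 9.42, and the neutrophil marker Ly6g was at 0. After LPS most of the T cell sum was Lck, at 6.93 CPM in WT and 7.12 in KO. Cd3e, Cd3d and Cd3g were each at or below 0.0461 CPM on average in every group. The sum of the 5 neutrophil markers was 17.8 to 19.1 CPM in WT UT against 39.3 to 44.4 in KO UT, and that of the 4 platelet and megakaryocyte markers 23.8 to 27 against 41.1 to 46.8. The 5 stromal markers summed to 21.6 to 23.9 CPM in WT LPS and 26.3 to 28.4 in KO LPS. Most of that sum was Pdgfrb, at 19.8 and 19.7 CPM, and the other 4, Col1a1, Col1a2, Col3a1 and Dcn, were called higher in KO LPS by 1.19 to 1.58 on the log2 scale while each stayed at or below 2.43 CPM on average. The 4 dendritic cell markers summed to 6.53 to 14.6 CPM over all libraries. Small structured RNAs also took shares of the counts that moved with genotype, with 3.00 to 3.25% in WT UT, 6.64 to 7.98% in KO UT, 4.04 to 6.89% in WT LPS and 3.23 to 3.43% in KO LPS. The part of these marker sums in the results below was not tested, and for the small RNA share the values of a fit with it as a covariate are given where they end or turn a call.

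The genes called between the genotypes after LPS were Tnf and genes near it. Of the 40 tested genes, 3 were called, where 1.25% of all genes tested were called, and all 3 were lower in KO, where 0.664% of all genes were called lower. They were Tnf, its neighbor Lta and Gm16181, a predicted gene. All 3 lie within 25 kb of Tnf, the body of Lta 1.2 kb and that of Gm16181 18.8 kb away. Without the fold minimum 10 of the 40 passed the adjusted p, against 14.3% of all genes, with 3 higher and 7 lower in KO, directions that 7.78% and 6.54% of all genes took. Among the 7 tested genes within 25 kb there were 5 of these 10 genes, against 1 of 9 tested genes over 25 to 100 kb, 2 of 10 over 100 to 250 kb and 2 of 14 over 250 to 500 kb. The median log2 fold change was -0.65 within 25 kb, -0.04 over 25 to 100 kb, -0.02 over 100 to 250 kb and -0.09 over 250 to 500 kb, and -0.10 over all 40 genes beside -0.01 over all genes tested. The median over the 40 genes turned to 0.07 with the small RNA share as a covariate. The bin within 25 kb includes Tnf itself, and its median is the value of Ltb (-0.65, SE 0.57, edgeR adjusted p 0.492). Ltb had at most 18 counts in any library, so this median is uncertain. These medians are descriptions, since neighbors share the same libraries and are not replicates.

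**Figure D1:**
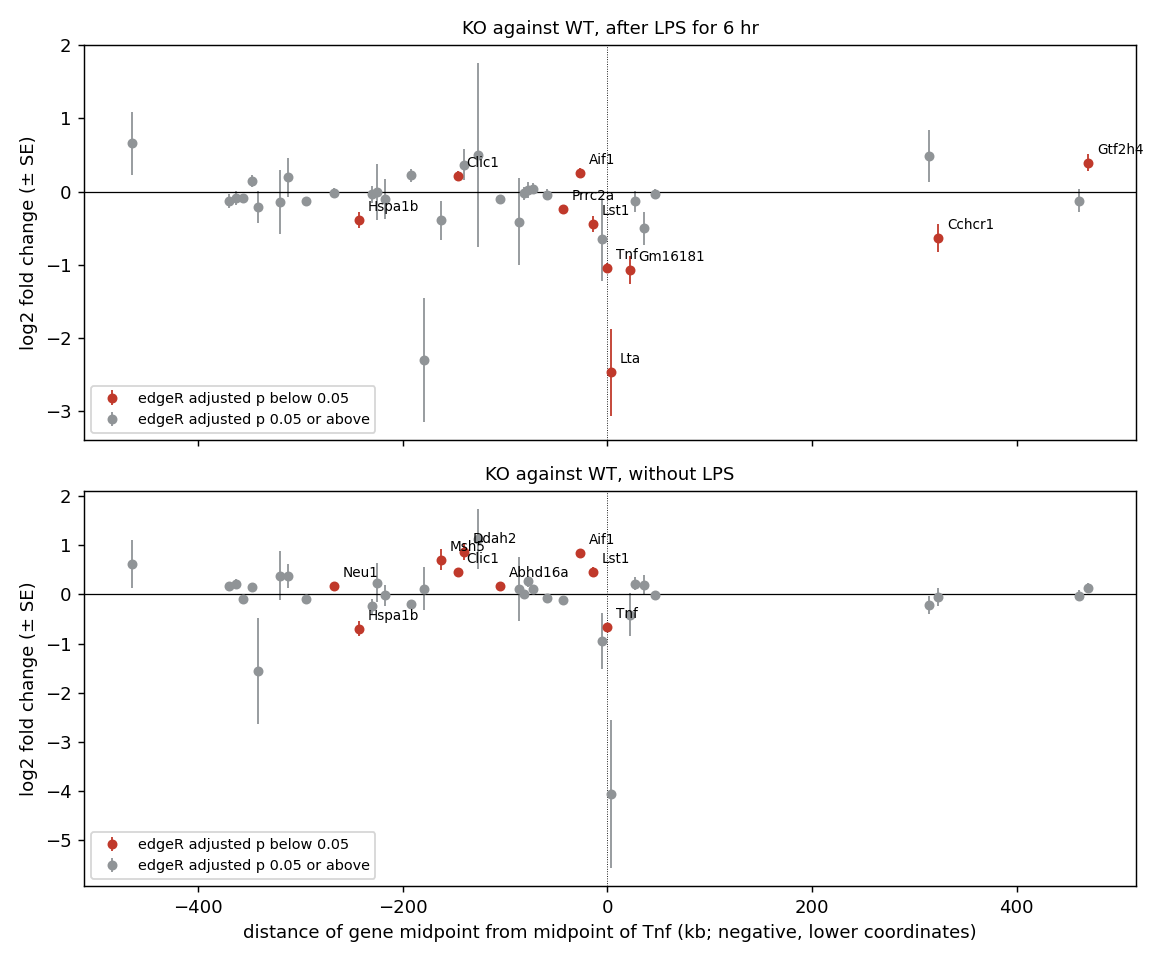
Log2 fold change of KO against WT with its SE (y axis) for the 40 tested genes by distance from Tnf in kb (x axis), after LPS (upper panel) and without LPS (lower panel). Red points have an edgeR adjusted p below 0.05 and are named: after LPS the 3 lowest red points, Lta, Gm16181 and Tnf, lie within 25 kb of Tnf, and without LPS 7 of the 9 red points lie above 0.

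Tnf (ENSMUSG00000024401.14, minus strand, 35199381 to 35202007) was at 826, 905 and 938 CPM after LPS in WT and at 422, 450 and 425 CPM in KO. Without LPS it was at 14.8, 15 and 16.2 CPM in WT and 9.51, 10.5 and 9.10 in KO. The genotypes did not overlap in either treatment. KO reached 0.486 of the WT level after LPS (log2 change -1.04, SE 0.06, edgeR adjusted p 2.76e-10) and 0.633 of it without LPS (log2 change -0.66, SE 0.07, edgeR adjusted p 1.29e-06). With the small RNA share as a covariate the differences were -0.91 and -0.94, so the first was no longer past the fold minimum, with edgeR adjusted p-values of 1.29e-11 and 6.31e-06.

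Lta (ENSMUSG00000024402.5, minus strand, 35203165 to 35205351), the ligand gene upstream of Tnf, was near the detection limit. After LPS its counts were 28, 23 and 14 in WT and 5, 3 and 5 in KO, without overlap. The log2 fold change was -2.47 (SE 0.59, edgeR adjusted p 0.0087), and without KO LPS replicate 2 the edgeR adjusted p was 0.0509. Without LPS they were 6, 1 and 1 in WT and 0, 0 and 0 in KO. Against a floor of 3 counts over the KO UT group, Lta was at least 2.13-fold lower in KO UT, a limit that covers counting error only. The edgeR adjusted p for this difference was 0.0595, above the threshold, 0.0487 without WT UT replicate 3 and 0.258 without WT UT replicate 1. That library holds 6 of the 8 WT counts, and without it no limit on the difference can be given. Ltb (ENSMUSG00000024399.5, plus strand, 35194439 to 35196320), which lies 3.1 kb on the other side of Tnf and encodes the membrane partner of lymphotoxin alpha, had at most 18 counts in any library. Its CPM values were 0.21, 0.397 and 0.255 in WT UT, 0.174, 0.118 and 0.152 in KO UT, 0.447, 0.449 and 0.283 in WT LPS and 0.422, 0.0751 and 0.256 in KO LPS. The WT and KO values overlapped after LPS and not without it, and the log2 fold changes of -0.65 (SE 0.57) and -0.95 (SE 0.57) had edgeR adjusted p-values of 0.492 and 0.258. Neither difference of Ltb passed, and with so few counts a difference was neither shown nor excluded.

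The 250 bases before the starts of Tnf and Lta are shown because these adjacent genes on the same strand were both lower in KO after LPS. The sequences are RefSeq promoter entries (GRCm38.p6), 5′ to 3′ on the minus strand, for Tnf at chr17:35202008-35202257 and for Lta at chr17:35205352-35205601, and the capitals mark the letters TATAAA.
Tnf: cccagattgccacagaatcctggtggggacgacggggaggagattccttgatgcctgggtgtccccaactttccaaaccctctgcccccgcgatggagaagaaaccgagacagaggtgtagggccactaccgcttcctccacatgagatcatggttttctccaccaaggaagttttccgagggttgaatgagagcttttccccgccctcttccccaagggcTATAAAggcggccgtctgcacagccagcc
Lta: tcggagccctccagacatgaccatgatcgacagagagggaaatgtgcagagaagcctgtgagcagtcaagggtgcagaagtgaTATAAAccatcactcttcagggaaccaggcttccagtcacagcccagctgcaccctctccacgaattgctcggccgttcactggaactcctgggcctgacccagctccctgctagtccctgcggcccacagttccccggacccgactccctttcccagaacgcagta
The TATAAA of Tnf begins at position -29 from its start, the place of a TATA box, and that of Lta at -167. RefSeq entries were matched for 45 of the 60 genes. Searched on both strands, TATAAA was in the 250 bases of 5 of these, the others being Gm9573, Ly6g6c and Psors1c2, and in 12.37% of 32851 promoters of the same length. A match describes letters in this window, and no match says nothing about binding of the factor.

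Gm16181 (ENSMUSG00000081650.1, plus strand, 35220834 to 35224134) was the third gene called after LPS. It had 8.68, 8.62 and 11.4 CPM in WT LPS and 4.98, 4.96 and 3.73 in KO LPS, which did not overlap (log2 change -1.07, SE 0.19, edgeR adjusted p 0.000667). The UT libraries had 6 to 16 counts in WT and 5 to 10 in KO (log2 change -0.42, SE 0.44, edgeR adjusted p 0.555). The difference after LPS did not pass with the small RNA share as a covariate, at -0.78 (edgeR adjusted p 0.0717). Without KO LPS replicate 3 or WT LPS replicate 3 it passed the adjusted p but not the fold minimum, at -0.939 and -0.925. Gm16181 lies inside the body of Nfkbil1 on the opposite strand, and 9.8% of its exonic stretches of 100 bases are antisense to exons of Nfkbil1. Whether strand was used in counting is not known, so reads of the pair may not be told apart. A wider interval, that of the enhancer RNA, overlapped the bodies of 2 of the 60 genes, Nfkbil1 and Gm16181. Nfkbil1, which encodes an inhibitor-of-NF-kappaB-like protein that acts in RNA processing, was at 6.74, 7.72 and 5.89 CPM in WT LPS and 5.67, 7.02 and 5.86 in KO LPS. Its genotypes overlapped, and the log2 fold changes were -0.14 (SE 0.14, edgeR adjusted p 0.572) after LPS and 0.22 (SE 0.13, edgeR adjusted p 0.253) without LPS. The next gene, Atp6v1g2, which encodes a subunit of the vacuolar proton pump, was at 2.8, 2.33 and 2.5 CPM in WT LPS and 1.61, 1.73 and 2.05 in KO LPS, and its log2 fold change of -0.50 (SE 0.23) did not pass (edgeR adjusted p 0.154). Ddx39b, an RNA helicase of splicing and mRNA export 39.7 kb away, was at 81.3 to 89.1 CPM in WT LPS and 80.5 to 85.6 in KO LPS (log2 change -0.03, SE 0.06, edgeR adjusted p 0.808).

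**Figure D2:**
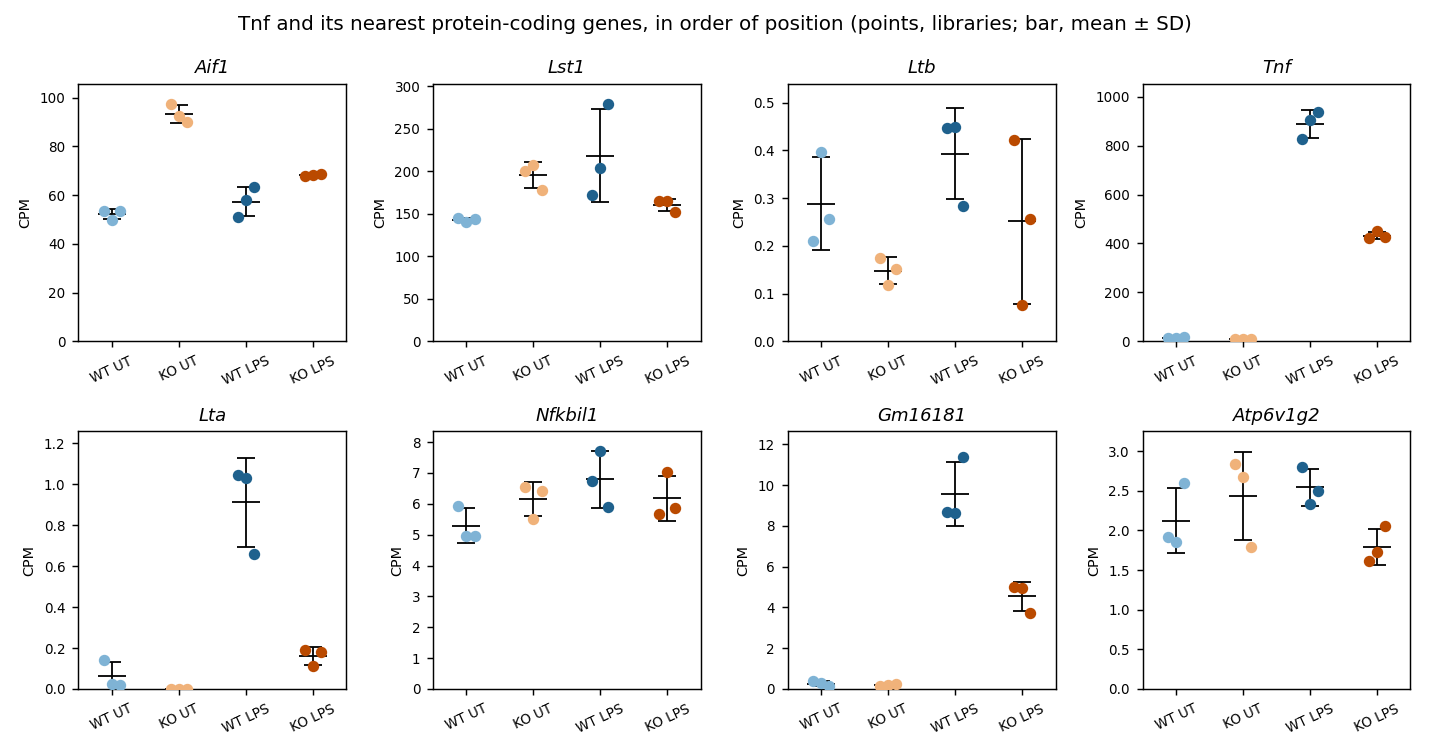
CPM (y axis, from 0) of Tnf and 7 genes around it in the 4 groups (x axis), with a point for each library and the mean ± SD of 3 libraries as a bar. Tnf, Lta and Gm16181 are lower in KO LPS than in every WT LPS library, Aif1 is highest in KO UT, and the WT LPS libraries of Lst1 spread from 172 to 279 CPM.

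On the other side of Tnf, Aif1 and Lst1 followed another pattern. Aif1, 23.3 kb away, encodes IBA1, an actin-binding protein used as a macrophage and microglia marker. It was at 53.3, 49.7 and 53.4 CPM in WT UT and 97.4, 92.6 and 90.0 in KO UT, which did not overlap (log2 change 0.84, SE 0.06, edgeR adjusted p 7.54e-09). After LPS it was at 51.1, 57.8 and 63.2 CPM in WT and 68.0, 68.4 and 68.8 in KO, again without overlap (log2 change 0.26, SE 0.07, edgeR adjusted p 0.0133, and 0.0597 in a fit on these 2 groups alone). Both differences of Aif1 passed with the small RNA share as a covariate, at 0.42 and 0.46.

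Lst1, 10.9 kb away, encodes a leukocyte-specific transcript for a small transmembrane adaptor. It was at 145, 140 and 144 CPM in WT UT and 201, 207 and 178 in KO UT (log2 change 0.45, SE 0.11, edgeR adjusted p 0.00354). After LPS the order was the opposite, with 172, 204 and 279 CPM in WT and 165, 165 and 153 in KO (log2 change -0.44, SE 0.11, edgeR adjusted p 0.00986). The genotypes of Lst1 did not overlap in either treatment. WT LPS replicate 3, the highest, was also the library with the largest small RNA share of its group, 6.89%, and the fewest counts of all, and without it the log2 change after LPS was -0.22 (edgeR adjusted p 0.0474). Without KO LPS replicate 3 the edgeR adjusted p after LPS was 0.0532. With the small RNA share as a covariate the direction of Lst1 turned in both treatments, to -0.54 without LPS (edgeR adjusted p 0.0048) and 0.06 after LPS (edgeR adjusted p 0.69).

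Without LPS, 0 of the 40 genes were called, where 1.82% of all genes tested were called. By DESeq2 the count was also 0, and 13 of the 40, or 32.5%, had an unadjusted edgeR p below 0.05, beside 34.3% of all genes. Without the fold minimum 9 genes passed the adjusted p, a share of 22.5% beside 23.8% of all genes, and 7 of them were higher and 2 lower in KO, against 14.1% and 9.69% of all genes. The 2 lower genes were Tnf and Hspa1b. Those that were higher were Aif1, Lst1, Clic1, Ddah2, Msh5, Neu1 and Abhd16a, and all 7 lie on the lower-coordinate side of Tnf, as do 30 of the 40 tested genes. The median over the 40 genes was 0.12, turning to -0.10 with the small RNA share as a covariate, and 0.00 over all genes tested. After LPS the genotypes did not overlap in 15 of the 40 genes, or 37.5%, beside 29.1% of all genes, and without LPS in 17, or 42.5%, beside 40.8%.

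Clic1 and Ddah2, which lie next to each other, were among the genes higher in KO without LPS. Clic1 encodes a chloride channel protein of the cytosol and membrane, and was at 250, 242 and 248 CPM in WT UT and 353, 328 and 330 in KO UT (log2 change 0.45, SE 0.06, edgeR adjusted p 1.56e-05). After LPS it was at 353, 413 and 399 CPM in WT and 461, 472 and 418 in KO (log2 change 0.21, SE 0.06, edgeR adjusted p 0.0255). The genotypes did not overlap in either treatment. The difference after LPS had an edgeR adjusted p of 0.0505 with the replicate number as a block, 0.0928 and 0.109 without KO LPS replicate 1 or 2, and 0.0545 without WT LPS replicate 1. It was 0.0594 with upper-quartile scaling, 0.0962 in a fit of these 2 groups alone and 0.0542 with protein-coding genes only. Its neighbor Ddah2, which encodes an enzyme of the dimethylarginine hydrolase family, was low, at 2.25, 1.92 and 2.28 CPM in WT UT and 4.08, 4.29 and 3.44 in KO UT (log2 change 0.87, SE 0.17, edgeR adjusted p 0.000499). With the small RNA share as a covariate neither difference without LPS passed, with 0.18 for Clic1 (edgeR adjusted p 0.453) and 0.65 for Ddah2 (edgeR adjusted p 0.601).

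The other 3 were small or variable. Msh5, a meiotic member of the MutS family, was at 2.76, 1.92 and 1.94 CPM in WT UT and 4.45, 2.73 and 3.59 in KO UT (log2 change 0.71, SE 0.21, edgeR adjusted p 0.0194). Its groups overlapped, and the edgeR adjusted p was 0.146 without KO UT replicate 1, 0.0885 without WT UT replicate 2 and 0.0849 without WT UT replicate 3. Neu1, a lysosomal sialidase, was at 94.8 to 103 CPM in WT UT and 106 to 115 in KO UT (log2 change 0.17, SE 0.06, edgeR adjusted p 0.041). Abhd16a, a phospholipase of the endoplasmic reticulum, was at 35.1 to 38.1 CPM in WT UT and 38.9 to 42.1 in KO UT (log2 change 0.16, SE 0.06, edgeR adjusted p 0.0492). Neither passed when the replicate number was a block, with edgeR adjusted p-values of 0.0709 for Neu1 and 0.0743 for Abhd16a. Neu1 also did not pass without any 1 of the KO LPS libraries, KO UT replicate 1 or 2 or WT UT replicate 2 or 3, with edgeR adjusted p-values from 0.0507 to 0.184. Abhd16a did not pass without KO LPS replicate 1 or 2, KO UT replicate 1 or 3, WT LPS replicate 2 or WT UT replicate 2 or 3, with 0.0591 to 0.185. By DESeq2 the adjusted p was 0.223 for Neu1 and 0.28 for Abhd16a. Neu1 was at -0.09 with the small RNA share as a covariate, and Msh5 and Abhd16a did not pass (edgeR adjusted p 0.673 and 0.887).

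After LPS 4 further genes had an adjusted p below 0.05 below the fold minimum. Prrc2a, a large RNA-binding protein gene 34.5 kb from Tnf, was at 125, 113 and 124 CPM in WT LPS and 97.7, 99.2 and 109 in KO LPS (log2 change -0.24, SE 0.06, edgeR adjusted p 0.0157). The groups of Prrc2a did not overlap, and the edgeR adjusted p was 0.0841 without KO LPS replicate 1 and 0.0702 without KO LPS replicate 2. Cchcr1, which encodes a coiled-coil protein of centrosomes and P-bodies 315.1 kb away, was at 5.4, 6.15 and 6.74 CPM in WT LPS and 4.91, 3.87 and 2.96 in KO LPS (log2 change -0.64, SE 0.19, edgeR adjusted p 0.0298). Gtf2h4, a subunit of the transcription and repair factor TFIIH 465.7 kb away, was at 6.52, 6.6 and 7.31 CPM in WT LPS and 8.51, 9.54 and 8.67 in KO LPS (log2 change 0.39, SE 0.12, edgeR adjusted p 0.0291). Both were without overlap, and with the replicate number as a block their edgeR adjusted p-values were 0.0511 for Cchcr1 and 0.0506 for Gtf2h4. Leaving out KO LPS replicate 2 or 3 or WT LPS replicate 2 or 3 took Cchcr1 to between 0.0746 and 0.145, and leaving out KO LPS replicate 2 or 3 or WT LPS replicate 1 or 2 took Gtf2h4 to between 0.0556 and 0.103 (edgeR adjusted p). Adding the small RNA share as a covariate gave edgeR adjusted p-values of 0.128 for Prrc2a, 0.408 for Cchcr1 and 0.125 for Gtf2h4, so none of the 3 passed, with log2 changes of -0.20, -0.41 and 0.44.

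The last of them was Hspa1b. Hspa1a and Hspa1b encode the inducible HSP70 chaperones, which help proteins refold under stress, and Hspa1l encodes a related protein known from testis. Hspa1b was at 1.94, 2.6 and 2.59 CPM in WT UT and 1.53, 1.44 and 1.44 in KO UT (log2 change -0.70, SE 0.15, edgeR adjusted p 0.00186). After LPS it was at 18.4, 18.1 and 19.3 CPM in WT and 13.4, 15.8 and 13.3 in KO (log2 change -0.39, SE 0.11, edgeR adjusted p 0.0172). The genotypes of Hspa1b did not overlap in either treatment. The edgeR adjusted p after LPS was 0.0775 without KO LPS replicate 1, 0.0806 without KO LPS replicate 3 and 0.061 without WT LPS replicate 3, and with the small RNA share as a covariate it was 0.216 after LPS and 0.138 without, with log2 changes of -0.34 and -0.80. Hspa1a was at 11.5, 10.5 and 10.1 CPM in WT LPS and 11.1, 9.95 and 10.3 in KO LPS, which overlapped (log2 change -0.04, SE 0.12, edgeR adjusted p 0.873). Without LPS the Hspa1a difference was -0.24 (SE 0.15, edgeR adjusted p 0.295).

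Values of this pair are uncertain as single genes, because 49.9% of the exonic stretches of 100 bases of Hspa1b and 48.6% of those of Hspa1a also occur in the other or in Hspa1l on the same strand. The treatment of reads with several matches is not stated, and a split of reads between the copies cannot be told apart from a difference between them. The promoters are shown because they are near copies too, equal at 247 of 250 positions (98.8%). They are RefSeq entries (GRCm38.p6) on the minus strand, 5′ to 3′, for Hspa1a at chr17:34972157-34972406 and for Hspa1b at chr17:34959239-34959488, and the capitals mark GAANNTTC, the core letters of a heat shock element.
Hspa1a: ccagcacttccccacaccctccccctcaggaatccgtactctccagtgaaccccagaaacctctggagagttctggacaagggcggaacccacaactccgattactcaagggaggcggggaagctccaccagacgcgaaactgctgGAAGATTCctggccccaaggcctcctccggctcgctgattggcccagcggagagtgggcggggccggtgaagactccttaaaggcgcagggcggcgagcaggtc
Hspa1b: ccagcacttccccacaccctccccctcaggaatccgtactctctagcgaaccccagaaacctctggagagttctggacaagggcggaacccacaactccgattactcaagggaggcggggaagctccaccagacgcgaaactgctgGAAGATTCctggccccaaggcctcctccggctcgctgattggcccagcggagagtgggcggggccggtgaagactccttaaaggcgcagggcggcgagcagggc
The element begins at position -104 in both. On either strand it was in 4 of the 45 genes with an entry, the other two being Ddx39b and 2300002M23Rik, and in 6.69% of all 32851 promoters.

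The response to LPS was compared next. Of the 40 genes, 15 were called in WT, where 37.8% of all genes tested were called, and 15 in KO, where the share was 37%. The share of the 40 genes, 37.5% in each genotype, was close to that of all genes. In WT 12 rose and 3 fell, against 19.1% and 18.7% of all genes, and in KO 8 rose and 7 fell, against 17.7% and 19.3%. The same 11 genes were called in both genotypes, each with the same sign. Stk19, Hspa1l, Abhd16a and Ly6g5b were called in WT alone and Lsm2, Msh5, Ddah2 and Ly6g6d in KO alone. That a gene passed in 1 genotype does not show that the genotypes differ, which the test of the difference below addresses. At any fold change 34 genes passed in WT and 32 in KO, against 73.3% and 72.8% of all genes. The median log2 fold change was 0.50 in WT and 0.40 in KO, beside 0.05 and -0.06 over all genes tested. Upper-quartile scaling moved the median of all genes by -0.18 in each genotype and the medians of the 40 genes to 0.31 and 0.21. Adding the small RNA share as a covariate ended the KO calls of C4b, C2, Vwa7, Msh5, Ddah2, Ly6g6d and Vars2 (edgeR adjusted p 0.0592 to 0.68) and the WT calls of C2, Hspa1l and Vwa7 (0.0885 to 0.176). In that fit the KO log2 changes were 0.91 for C4b, 1.96 for C2, -2.75 for Vwa7, -1.10 for Msh5, -0.95 for Ddah2, -1.40 for Ly6g6d and -0.80 for Vars2, and the WT ones 1.39 for C2, 1.02 for Hspa1l and -1.86 for Vwa7, so a lost call does not by itself show a smaller change. Of smaller responses, those of Hspa1l, Neu1, Bag6 and Aif1 in KO (edgeR adjusted p 0.181 to 0.89) and of Lst1, Nfkbil1, Ddah2 and Cchcr1 in WT (0.0542 to 0.537) did not pass in that fit. The log2 changes of Hspa1l in KO (1.00) and of Nfkbil1 (0.467) and Ddah2 (-0.767) in WT were larger in size than without the covariate, and the others were smaller.

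**Figure D3:**
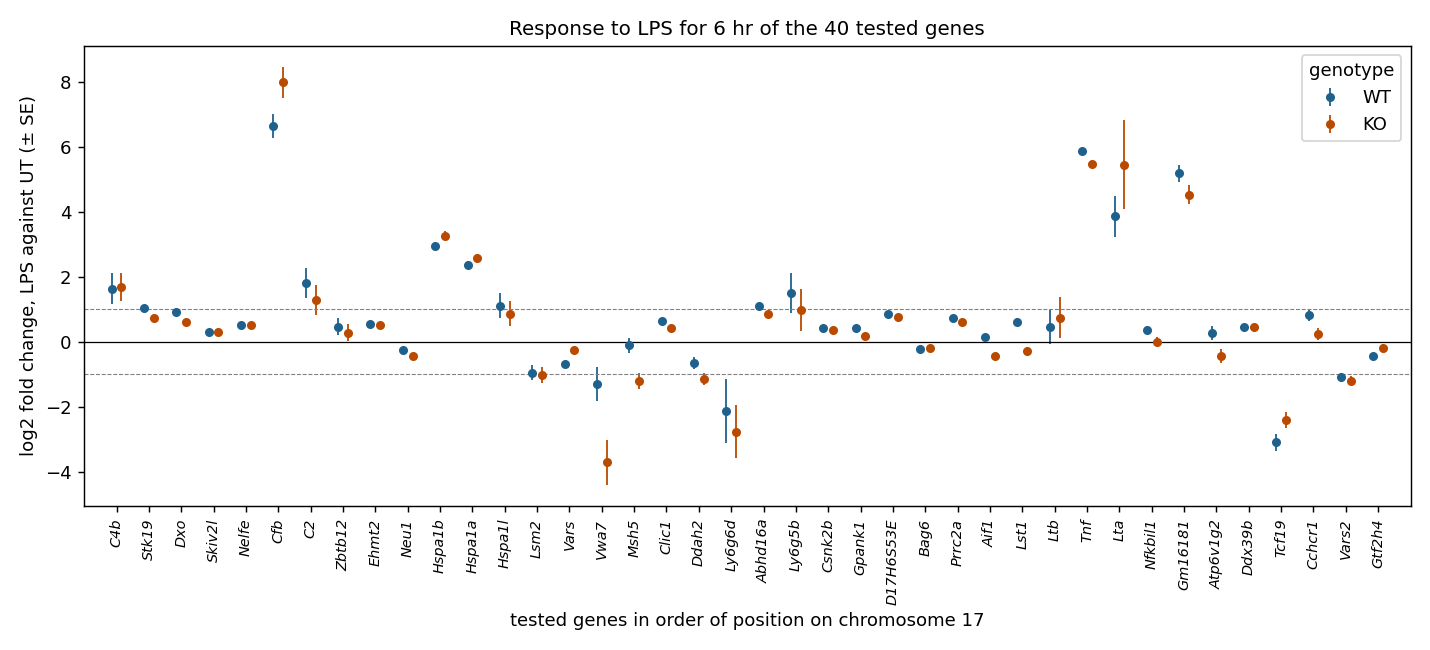
Log2 fold change of LPS against UT with its SE (y axis) for the 40 tested genes in order of position (x axis), in WT (blue) and KO (orange), with dashed lines at -1 and 1. Cfb, Tnf, Lta and Gm16181 stand above the other genes in both genotypes, and Tcf19 is the lowest point in WT.

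Tnf rose with LPS by 5.86 (log2) in WT (SE 0.08, edgeR adjusted p 5.12e-24) and by 5.48 in KO (SE 0.08, edgeR adjusted p 1.58e-23), which is 58.1-fold and 44.5-fold. Gm16181 rose by 5.18 in WT (SE 0.26, edgeR adjusted p 6.22e-14) and by 4.53 in KO (SE 0.30, edgeR adjusted p 7.71e-12). Lta rose in WT from a sum of 8 counts to 65, a ratio of 15.6 with an exact 95% interval of 7.47 to 37.7 for counting error (edgeR adjusted p 1.7e-05). The fitted log2 fold change of 3.86 was 5.17 without WT UT replicate 1. In KO it went from 0 to 13 counts, at least 5.86-fold higher against a floor of 3 counts over the group (edgeR adjusted p 0.00145). The third ligand gene, Ltb, did not pass in WT (log2 change 0.45, SE 0.53, edgeR adjusted p 0.447) or in KO (0.75, SE 0.62, edgeR adjusted p 0.286). Of the nearest other genes, Nfkbil1 rose by 0.36 in WT (edgeR adjusted p 0.021, and 0.132 without WT LPS replicate 2, 0.0719 without WT UT replicate 2 and 0.0753 without WT UT replicate 3) and was at 0.01 in KO (edgeR adjusted p 0.97).

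The 3 complement genes all rose in both genotypes. Cfb encodes factor B, the protease of the alternative pathway, and C2 and C4b encode components of the classical and lectin pathways. In WT, Cfb had 3, 9 and 0 counts without LPS and 181, 212 and 247 after LPS. In KO it had 0, 1 and 2 counts without LPS and 180, 249 and 210 after LPS. The log2 fold change was 6.64 in WT (SE 0.38, edgeR adjusted p 5.88e-13), 7.95 without WT UT replicate 2 and 6.04 without WT UT replicate 3. In KO the ratio of summed counts was 288 with an exact 95% counting interval of 98.0 to 1400 (edgeR adjusted p 1.36e-12), and the fitted log2 fold change of 7.98 was 8.75 without KO UT replicate 3. After LPS Cfb was at 6.75, 9.52 and 11.6 CPM in WT and 6.9, 9.35 and 7.68 in KO, which overlapped (log2 change -0.21, SE 0.22, edgeR adjusted p 0.571). C2 and C4b stayed low, at 0.851 and 0.586 CPM on average in WT LPS. C2 rose by 1.80 in WT (edgeR adjusted p 0.00173) and by 1.28 in KO (edgeR adjusted p 0.0176). In KO the C2 rise had an edgeR adjusted p of 0.0906 without KO LPS replicate 1, 0.0602 without KO UT replicate 1 and 0.0758 without KO UT replicate 2. C4b rose by 1.64 in WT (edgeR adjusted p 0.00419, and 0.0676 without WT LPS replicate 2) and by 1.68 in KO (edgeR adjusted p 0.00172). No complement gene of the window passed between the genotypes in either treatment. Counts of Cfb and C2 are uncertain in part, since 66.9% and 35.5% of their exonic stretches also belong to Gm20547, an annotated read-through gene that was at 0 in every library, and 15.2% of those of C4b occur in its copy C4a.

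**Figure D4:**
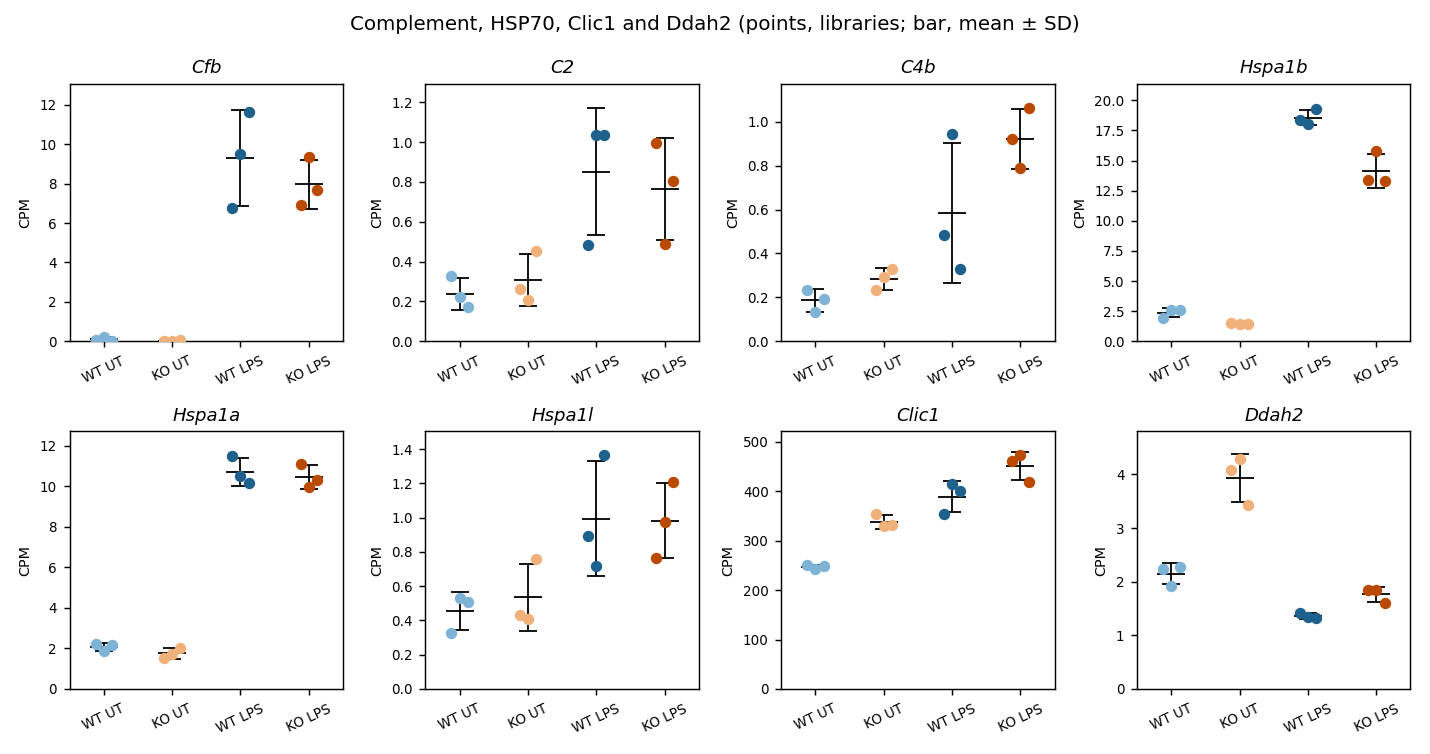
CPM (y axis, from 0) of the 3 complement genes, the 3 HSP70 genes, Clic1 and Ddah2 in the 4 groups (x axis), with a point for each library and the mean ± SD of 3 libraries as a bar. Cfb, Hspa1b and Hspa1a are higher in every LPS library than in every UT library, and the KO values of Hspa1b lie below the WT values in both treatments.

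The HSP70 genes also rose with LPS. Hspa1b rose by 2.96 (log2) in WT and 3.26 in KO (SE 0.12 and 0.14), and Hspa1a by 2.36 and 2.57 (SE 0.13 and 0.14), with edgeR adjusted p-values of at most 5.23e-13. Hspa1l rose by 1.11 in WT (edgeR adjusted p 0.0148) and by 0.86 in KO (edgeR adjusted p 0.0498). Neither held throughout: in WT it was 0.104 without WT LPS replicate 3 and 0.0575 without WT UT replicate 1, and in KO it was above 0.05, at up to 0.175, when any 1 library was left out except KO LPS replicate 1, KO UT replicate 3 and WT UT replicate 1. In addition 70.8% of the exonic stretches of Hspa1l are antisense to Gm10501. Of 12 heat shock genes elsewhere in the genome, 3 were called in WT and 5 in KO, all higher, which is 25% and 41.7% beside 19.1% and 17.7% of all genes called higher, and the medians were 0.28 and 0.48. Dnaja1, a co-chaperone of HSP70, rose by 1.85 in WT and 1.75 in KO, and Hspa8, the constitutive HSP70, rose by 0.84 and 1.23. Hsph1, a nucleotide exchange factor of HSP70, fell by 0.27 in WT (edgeR adjusted p 0.0109). Between the genotypes 0 of the 12 were called after LPS and 1, Hspb1, without LPS, where 1.25% and 1.82% of all genes were called. At any fold change 2 were higher and 1 lower in KO after LPS, directions that 7.78% and 6.54% of all genes took. Without LPS 3 were higher and 2 lower, against 14.1% and 9.69% of all genes. Hspa8 was higher in KO after LPS by 0.31 (edgeR adjusted p 0.000442), and Hspa4l, of the HSP110 family, was lower after LPS, at -0.24 (edgeR adjusted p 0.0149), and without LPS, at -0.33 (edgeR adjusted p 0.000312).

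Among the genes lower after LPS were a nuclear factor, RNA and translation genes and 2 genes of low counts. Tcf19, a nuclear factor that rises in proliferating cells, was at 4.28, 3.64 and 3.13 CPM in WT UT and 0.373, 0.449 and 0.471 in WT LPS. In KO it was at 2.83, 3.03 and 3.64 CPM without LPS and 0.652, 0.751 and 0.402 after LPS. It fell by 3.09 in WT (SE 0.27, edgeR adjusted p 7.8e-10) and by 2.40 in KO (SE 0.25, edgeR adjusted p 1.62e-08). Vars2, the mitochondrial valyl-tRNA synthetase, fell by 1.09 in WT and 1.19 in KO (edgeR adjusted p 3.13e-07 and 9.17e-08), and Vars, its cytosolic counterpart, fell by 0.67 and 0.26 (edgeR adjusted p 2.59e-07 and 0.00746). Lsm2, a subunit of the ring that binds U6 RNA and decapped mRNA, was at -0.95 in WT (edgeR adjusted p 0.00146) and -1.03 in KO (edgeR adjusted p 0.000714). Vwa7, a gene with a von Willebrand factor A domain, went from a sum of 58 counts to 3 in KO, 14.3-fold lower with an exact 95% counting interval of 4.66 to 71.4 (edgeR adjusted p 6.54e-05), and its fitted log2 fold change of -3.71 was -4.59 without KO LPS replicate 2. In WT Vwa7 fell by 1.29 (edgeR adjusted p 0.0328), which did not pass without WT LPS replicate 1 or 2 or WT UT replicate 2 or 3 (edgeR adjusted p 0.054 to 0.149). Ly6g6d, of the Ly6 surface protein family, went from 48 to 5 counts in KO and from 27 to 3 in WT (edgeR adjusted p 0.00424 and 0.0554), and its fitted log2 fold change in KO of -2.77 was -4.31 without KO LPS replicate 3.

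Of the 8 tested genes listed under transcription and chromatin, 2 were called with LPS in WT, Stk19 and Tcf19, and 1 in KO, Tcf19, which is 25% and 12.5% beside 37.8% and 37% of all genes called. Of the 4 listed under RNA and translation, Vars2 was called in WT and Vars2 and Lsm2 in KO, which is 25% and 50% beside the same shares of all genes. Of the 3 NF-kappaB inhibitor-like and RNA helicase genes 0 were called in either genotype while 3 passed the adjusted p in WT and 2 in KO, all higher, beside 73.3% and 72.8% of all genes that passed. For 6 further genes of the window, shown as examples below the fold minimum, the values were as follows. Ehmt2, a histone H3 lysine 9 methyltransferase, rose by 0.56 in WT and 0.52 in KO. Nelfe, a subunit of the complex that pauses RNA polymerase II, rose by 0.52 and 0.51, and Skiv2l, a helicase of the RNA exosome, by 0.30 in each. Ddx39b rose by 0.46 and 0.44, and Csnk2b, the regulatory subunit of casein kinase 2, by 0.41 and 0.37. Bag6, a chaperone for membrane proteins, fell by 0.23 and 0.20, of which the WT value did not pass without WT LPS replicate 2 (edgeR adjusted p 0.0537) and the KO value not without KO LPS replicate 1, KO UT replicate 1 or KO UT replicate 2 (edgeR adjusted p 0.0642 to 0.107). The largest of these genotype differences after LPS was 0.14, for Nelfe, and none of these 6 genes passed between the genotypes in either treatment (edgeR adjusted p of at least 0.105).

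The difference between the LPS responses of the genotypes was tested as an interaction, given as the KO response minus the WT response. Of the 40 genes 1 was called, Msh5, beside 2.16% of all genes, and 6 had an adjusted p below 0.05 at any fold change, beside 16.8% of all genes. Of these 6, 3 lie within 25 kb of Tnf, and they are Tnf, Lst1 and Aif1. Tnf rose less in KO (-0.38, SE 0.09, edgeR adjusted p 0.00763). Lst1 rose by 0.61 in WT (edgeR adjusted p 3.39e-05, and by 0.40 without WT LPS replicate 3) and fell by 0.28 in KO (edgeR adjusted p 0.025), a difference of -0.89 (SE 0.15, edgeR adjusted p 0.000376). The fall of Lst1 in KO had an edgeR adjusted p of 0.0887 without KO LPS replicate 3, 0.0702 without KO UT replicate 1 and 0.0879 without KO UT replicate 2, and with the small RNA share as a covariate Lst1 was at 0.65 in KO, the other direction (edgeR adjusted p 1e-05). Aif1 was at 0.14 in WT (edgeR adjusted p 0.0705) and fell by 0.45 in KO (edgeR adjusted p 2.38e-06), a difference of -0.58 (SE 0.09, edgeR adjusted p 0.000196). With the small RNA share as a covariate 0 of the 40 genes passed, and the values were 0.04 for Tnf, 0.60 for Lst1 and 0.05 for Aif1. The interaction calls over all genes went from 335 to 42 in that fit. No difference between the responses was detected for Lta (1.59, SE 1.25, edgeR adjusted p 0.439), Gm16181 (-0.65, SE 0.50, edgeR adjusted p 0.423) or Cfb (1.34, SE 1.09, edgeR adjusted p 0.453), whose standard errors were large. The Lta value rests on a KO UT group at 0 counts and was 0.24 without WT UT replicate 1.

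Among levels per kb of exon, Lst1 was the highest of the 60 genes in WT UT at 344 CPM per kb, before Clic1 at 137 and Aif1 at 34.0, and the same 3 genes led in KO UT at 471, 188 and 60.9. After LPS Tnf was the highest in WT at 543 CPM per kb, beside Lst1 at 526, which spread too widely over its libraries for these 2 to be ordered. In KO LPS Lst1 was at 388, Tnf at 264 and Clic1 at 251 CPM per kb. Tnf took 1.35% ± 0.075 (SD, n = 3) of all CPM of the 60 genes in WT UT and 0.734% ± 0.056 in KO UT. After LPS the share was 36% ± 0.29 in WT and 21.9% ± 0.36 in KO. Without Tnf, the other 59 genes summed to 1123 ± 26.5 CPM in WT UT, 1313 ± 57.2 in KO UT, 1583 ± 101 in WT LPS and 1542 ± 35.1 in KO LPS (SD, n = 3). Without LPS every KO library was above every WT library in this sum, with 1259 to 1373 against 1097 to 1150, and after LPS the libraries overlapped, with 1508 to 1578 against 1480 to 1681.

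Of the 20 genes that were not tested, 9 had 0 counts in every library and the others at most 14 counts in any. They include genes known from other tissues, such as Pou5f1 of pluripotent cells, Cdsn and Psors1c2 of skin, Cyp21a1 of the adrenal gland, Ddr1 of epithelia and Apom of liver. Of the 7 Ly6 and immunoglobulin-like surface protein genes in the window, 2 were tested, Ly6g6d and Ly6g5b, and neither passed between the genotypes. Ly6g5b rose with LPS in WT (log2 change 1.5, edgeR adjusted p 0.0326) from 0.0662 to 0.319 CPM to 0.359 to 0.754 CPM. The 969 protein-coding genes of chromosome 17 outside the window served for comparison of the background. Of these, 587 were tested, and 3 were called after LPS and 6 without LPS between the genotypes, with medians of -0.01 and 0.01. These calls are 0.511% and 1.02% of them, below the 1.25% and 1.82% of all genes tested.

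The receptors and signaling genes of the ligands lie elsewhere in the genome. Of 12 listed 0 were called between the genotypes in either treatment, where 1.25% of all genes were called after LPS and 1.82% without. With LPS 7 of 12 were called in WT and 8 in KO, all higher, which is 58.3% and 66.7% beside 19.1% and 17.7% of all genes called higher. Tnfrsf1b, the gene of TNF receptor 2, rose by 2.65 in WT and 3.09 in KO, and Tnfaip3, an inhibitor of NF-kappaB signaling, rose by 5.34 and 5.06. After LPS Tnfaip3 was lower in KO, at -0.30 (edgeR adjusted p 0.00133) and Rhbdf2, a cofactor of the protease that releases TNF, at -0.22 (edgeR adjusted p 0.017), while Adam17, that protease, was higher by 0.29 (edgeR adjusted p 0.00145). These were the 3 of the 12 that passed after LPS at any fold change, beside 14.3% of all genes. Without LPS 3 passed, all lower in KO, where 9.69% of all genes were lower. They were Tnfrsf1b at -0.306, Birc3 at -0.217 and Rhbdf2 at -0.205 (edgeR adjusted p 4.97e-05, 0.00867 and 0.0247). Among 13 complement genes elsewhere, 2 were called after LPS and 2 without LPS, all higher in KO, which is 15.4% each beside 1.25% and 1.82% of all genes called in either direction. C1qa, a subunit of the recognition protein of the classical pathway, was higher in KO by 1.12 after LPS (edgeR adjusted p 2.06e-09) and by 1.43 without LPS (edgeR adjusted p 1.45e-11), and the complement genes of the window showed no such difference that passed. With LPS, C3, the central complement component, rose by 3.09 in WT and 3.54 in KO.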

How the data were processed

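Total RNA of 12 libraries was prepared with a TruSeq stranded total RNA kit with globin depletion. The authors mapped the paired-end reads on GRCm38 (HISAT2 2.1.0) and summarized them per gene with featureCounts 2.0.0, and the deposited values are raw counts per gene, without normalization. FastQC 0.11.9 and SAMtools 1.17 are also named in the submitters' processing notes, and the annotation release, strand setting and handling of multi-mapping reads are not given in the sources used here.

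Identifiers were matched to GENCODE M21, which paired 48144 of 48526, and the others held 0.122% of counts. filterByExpr (minimum count 10, minimum total 15) kept 15523 genes with 99.96% of counts. The quasi-likelihood test of edgeR 4.0.16 in R 4.3.3 used TMM scaling and 1 model of the 4 groups, with Benjamini-Hochberg adjustment over all genes kept. The study used DESeq2, which was run as an alternative (version 1.42.0). On simulated counts for KO LPS against WT LPS (15023 genes, 100 genes changed at each size), 97% of 2-fold and 100% of 4-fold changes were recovered. Recovery needed an adjusted p below 0.05 and not the fold minimum, and the median fitted log2 change of the 2-fold genes was 1.01. The changed genes were drawn from those above 1 CPM on average, so genes of lower counts were not covered. Among the genes left unchanged 7 passed. Intervals and floors cover counting error only. Replicate libraries differed by more than counting noise (chi-square per degree of freedom of at least 3.72). The batch in the labels equals the replicate number. Over 18 pairs of libraries with the same number, the correlation of deviations from group means was -0.0631 to 0.0373, with 0 pairs over 0.1. A pairing by this number was therefore not seen in the counts, and the number was a block in an alternative only. Distances run from gene body to gene body. Figures were drawn with matplotlib in Python.

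The genes and lists were chosen with earlier results of these data known. Named genes are Tnf, the 5 nearest on each side, those past the adjusted p in a genotype contrast or the interaction, the 5 largest increases and decreases among genes called with LPS in each genotype, and the ligand, complement and HSP70 lists. Other members, untested genes and genes elsewhere were named from the lists beside that rule, after their values were seen. The alternatives tried were a block for the replicate number, DESeq2, scaling by RLE or by upper quartiles, no low-count filter or a minimum mean CPM of 1, leaving out the 10 genes with most counts, fitting only the groups compared or only protein-coding genes, a small RNA covariate, overlapping genes left out, no fold minimum, and leaving out each library.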

Additional observations from a re-analysis of the deposited data

Results flagged for a closer look

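The LPS response differed between KO and WT in 6 of the 40 tested genes by the interaction test of edgeR, or 15% beside 16.8% of all genes, and each value is the KO response minus the WT response on the log2 scale. The difference was -0.383 for Tnf (edgeR adjusted p 0.00763), -0.893 for Lst1 (edgeR adjusted p 0.000376) and -0.584 for Aif1 (edgeR adjusted p 0.000196). It was -1.1 for Msh5 (edgeR adjusted p 0.0288), -0.263 for Abhd16a (edgeR adjusted p 0.0338, and 0.0561 with the replicate number as a block) and 0.411 for Vars (edgeR adjusted p 0.0189). Msh5 fell by 1.21 in KO and was at -0.11 in WT, Abhd16a rose by 0.85 in KO and 1.11 in WT, and Vars fell by 0.26 in KO and 0.67 in WT. Leaving out 1 library took Vars to an edgeR adjusted p of 0.0591 (WT LPS replicate 2) or 0.0508 (WT LPS replicate 3), and Msh5 to between 0.0556 and 0.0959 (KO LPS replicate 3, KO UT replicate 1, WT LPS replicate 1 or 3, WT UT replicate 2 or 3). Abhd16a went to between 0.0508 and 0.102 without KO LPS replicate 2 or 3, KO UT replicate 1 or 3, WT LPS replicate 2 or 3 or WT UT replicate 2 or 3. Tnf, Lst1 and Aif1 passed in all 12 of these fits. With the small RNA share as a covariate 0 of the 40 passed, and Tnf, Lst1 and Aif1 had the other sign. In that fit the interaction calls over all genes went from 335 to 42, so the loss was not particular to these genes.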

How the results depend on the processing

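With the small RNA share as a covariate, 1 gene was called between the genotypes after LPS, 4 passed at any fold change after LPS and 3 without LPS, 9 were called with LPS in KO, and for the interaction 0 were called and 0 passed. The medians with it were 0.0659 after LPS, -0.105 without LPS, 0.62 for LPS in KO and 0.14 for the interaction. It turned the direction of Neu1 without LPS (-0.0874), of Lst1 after LPS (0.0608), without LPS (-0.535) and with LPS in KO (0.651), and of the interaction of Lst1 (0.595), Aif1 (0.0487), Tnf (0.0356), Gm16181 (0.202) and Ltb (-0.972). Over all genes tested this fit called 103 between the genotypes after LPS, 111 without LPS, 4521 with LPS in KO and 42 for the interaction. The main fit called 194, 283, 5741 and 335, so calls were lost over all genes too. The share differs between the groups, so this fit and the group cannot be told apart fully. Without overlapping genes, 1 was called between the genotypes after LPS and 7 with LPS in each genotype, with a median of 0.0292 for LPS in KO, and fewer genes enter. Without a fold minimum the counts were 10 and 9 between the genotypes after and without LPS, 34 and 32 with LPS in WT and KO, and 6 for the interaction. A mean CPM of at least 1 left 9 called with LPS in WT, upper-quartile scaling gave medians of 0.31 and 0.211 for LPS in WT and KO, and RLE scaling called 1 gene, Lta, without LPS. Leaving out 1 library gave 5 (KO LPS replicate 2; 6 without replicate 3) to 10 genes past the adjusted p after LPS, 0 to 1 (WT UT replicate 3) called without LPS, and for the interaction 0 to 1 called and 3 (WT LPS replicate 3) to 8 passing. The interaction call of Msh5 was lost without KO LPS replicate 3, KO UT replicate 1, WT LPS replicate 1 or 3 or WT UT replicate 2 or 3. The interaction of Ltb ranged from -0.284 to 0.722 in these fits, with -0.00592 without WT UT replicate 2. The cause was not tested. The replicate block changed the calls given beside the results and no other call among the 29 genes that the naming rule gave, and genes named beside the rule were not run under the alternatives. Tnf kept its direction and an adjusted p below 0.05 under all alternatives in both genotype comparisons. DESeq2 gave Lta after LPS no adjusted p. By the adjusted p, Neu1 and Abhd16a without LPS and the interaction of Abhd16a also failed with RLE scaling and, separately, with no low-count filter, Nfkbil1 in WT and Hspa1l in KO with upper-quartile scaling and, separately, with no filter, Nfkbil1 in WT and Gtf2h4 after LPS with only the compared groups, Vwa7 in WT with no filter, Bag6 in WT with protein-coding genes only, and with DESeq2 the interaction of Abhd16a and Bag6 and Lst1 in KO. Upper-quartile scaling put Hspa1l and Abhd16a in WT below the fold minimum, and took Neu1 and Abhd16a without LPS past 0.05. For 65 named values that did not pass, 82 of the alternative values had the other sign and 19 passed. Counts were low for, among others, Lta, Ltb, Vwa7, Ly6g6d, Ly6g5b and Cfb without LPS, which limits their values.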

Other observations

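Some values of the window were not given above. Stk19, a kinase-like nuclear protein gene, and Dxo, which encodes a decapping enzyme, lie next to each other and rose with LPS by 1.04 and 0.91 in WT and by 0.74 and 0.61 in KO on the log2 scale (edgeR adjusted p of at most 1.33e-05). Zbtb12, a zinc finger gene, did not pass with LPS in WT (0.47, edgeR adjusted p 0.111) or KO (0.28, edgeR adjusted p 0.318). Vwa7 had 5, 2 and 7 counts in WT LPS and 1, 2 and 0 in KO LPS, a ratio of KO to WT of 0.188 with an exact 95% counting interval of 0.0347 to 0.674, and its edgeR adjusted p was 0.0731.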
